A study of Macaca mulatta with 30 samples.

Results

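The genes described here encode proteins of the tight junction, and they were measured in fetal lung and fetal hippocampus of rhesus macaques after maternal betamethasone. The list holds 9 genes, the claudins CLDN1, CLDN3, CLDN4, CLDN5, CLDN7 and CLDN18, the scaffold gene TJP1, the occludin gene OCLN and F11R. They were taken by their Ensembl rhesus symbols and not by their levels, though the list was chosen with earlier results of these data known. Of the 9, 7 had a row among the 30246 genes of the lung data and 8 had a row among the 32386 genes of the hippocampus data. CLDN5 (ENSMMUG00000060434) was found in neither set of rows and CLDN4 (ENSMMUG00000044653) in the hippocampus rows only, so that neither could be analysed in lung. All 7 genes of the lung rows passed the read minimum of 7 reads in at least 3 libraries. In hippocampus 5 genes (CLDN1, CLDN3, TJP1, OCLN and F11R) passed the minimum of 7 reads in at least 5 libraries, and CLDN4, CLDN7 and CLDN18 did not.

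Tight junctions close the gap between neighbouring epithelial or endothelial cells and set which ions and molecules can pass there. Claudins form the sealing strands, occludin and the junctional adhesion molecule JAM-A (the product of F11R) lie beside them in the membrane, and ZO-1 (the product of TJP1) ties the membrane proteins to the cytoskeleton. In lung they seal the airways and the alveolar surface, where claudin-18 is characteristic, and in brain they form the barrier of the capillaries, where claudin-5 is the main claudin, and that of the choroid plexus, the epithelium that makes cerebrospinal fluid.

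Lung was taken from 15 wild-type fetuses in 5 groups of 3, labelled gestational day 124 to 130. Pregnant animals received intramuscular saline, the clinical drug (Celestone, a mixture of betamethasone phosphate and betamethasone acetate, 0.25 mg/kg) with delivery after 4 h or 5 days, or betamethasone acetate alone (Beta-Ac, 0.125 mg/kg) with delivery after 6 h or 5 days. Hippocampus was taken from 15 fetuses at gestational day 130 to 136, with 5 each after saline, the clinical drug and Beta-Ac, all at 5 days, and 9 of these fetuses (3 per treatment) also gave a lung library. The hippocampus labels of these 9 fetuses give day 131 to 136, which conflicts with day 124 to 130 in the lung labels. The hippocampus groups follow the library names. The treatment and dose fields of those libraries name the other drug, whereas the 6 treated fetuses with both tissues carry in their lung labels the drug of the library name. Comparisons of both drugs together with saline do not depend on this. Each fetus is 1 sample, so that the spread between samples is that between animals.

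Libraries held between 14.1 and 45.03 M counted reads in lung (median 21.7 M) and between 18.3 and 29.3 M in hippocampus (median 23.7 M). Levels are CPM, counts scaled to a common library size after TMM normalization, which fits that size to the bulk of the genes. No gene lengths enter these levels, so that a gene was compared between libraries and not with another gene. A gene was called when its level differed by 1.5-fold or more, with p below 0.05 and a p adjusted across all genes tested below 0.1. FKBP5, a co-chaperone of the glucocorticoid receptor and a standard target of it, rose in lung at 4 h after the clinical drug by 4.94 on the log2 scale (SE 0.52) and at 6 h after Beta-Ac by 3.21 (SE 0.49), and at 5 days its log2 fold changes were 0.14 and 0.13 without a call. The tissue labels were checked against cell type markers. The 9 lung epithelial markers with a row (EPCAM, CDH1, NKX2-1 and others) were all called higher in lung than in hippocampus. All 8 hippocampal neuron markers and 6 astrocyte markers were called lower. Of all genes 73.6% were called in this comparison. KRT18, ELF3 and ESRP1 did not pass the hippocampus minimum. NEUROD1, RBFOX3, GFAP and SLC1A2 did not pass that of lung. The calls of these genes therefore say little. In bulk RNA a lower level can come from fewer cells of a type or from less RNA per cell, and these cannot be told apart.

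CLDN18 (ENSMMUG00000009636), the claudin characteristic of alveolar epithelium, was the member that rose with the drug in lung. The saline libraries held 53.1, 74.8 and 88.1 CPM, and the libraries at 4 h after the clinical drug held 126, 131 and 157 CPM. The groups did not overlap, and 11.1% of all genes lay wholly above the controls in this comparison. CLDN18 rose 1.91-fold, with a log2 fold change of 0.93 (SE 0.16) and a 95% interval of 0.59 to 1.27 (edgeR quasi-likelihood test, Storey adjusted p = 0.00198). The call held in each of 21 alternative settings, among them each library left out in turn. CLDN18 was 1 of 7 members called in this comparison, where 7.4% of all 17644 genes tested were called.

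The other treated lung groups also lay above the controls for CLDN18, with smaller differences that were not called. At 6 h after Beta-Ac the libraries held 100.4, 108 and 128 CPM, with a log2 fold change of 0.64 (SE 0.16, unadjusted p = 0.00117, adjusted p = 0.123 by the same edgeR test). At 5 days the libraries held 89.9, 90.0 and 94.1 CPM after the clinical drug, with a log2 fold change of 0.34 (SE 0.16, adjusted p = 0.931). At 5 days after Beta-Ac they held 109, 129 and 136 CPM, with a log2 fold change of 0.79 (SE 0.16, unadjusted p = 0.000197, adjusted p = 0.641). All 12 treated libraries were thus above all 3 controls, although at 5 days after the clinical drug the margin was from 88.1 to 89.9 CPM. The comparisons share the same 3 controls and are not independent, and the share of all genes with this joint pattern was not computed. Of all genes 9.03% lay wholly above the controls at 6 h after Beta-Ac, and 6.25% (clinical) and 5.73% (Beta-Ac) did at 5 days. DESeq2 called CLDN18 at 6 h after Beta-Ac (adjusted p = 0.0204) and at 5 days after Beta-Ac (adjusted p = 0.00764), which edgeR did not. Without the saline fetus 16-113, the control with the highest level, edgeR also called it at 6 h after Beta-Ac (adjusted p = 0.0653).

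Ordered by group mean, the mean CPM of CLDN18 was 138 ± 16.8 (SD over 3 libraries) 4 h after the clinical drug, 125 ± 13.8 at 5 days after Beta-Ac, 112 ± 14.4 at 6 h after Beta-Ac, 91.3 ± 2.39 at 5 days after the clinical drug and 72.0 ± 17.7 in controls. Neighbours in this order overlapped or lay within their spread, except that every library at 6 h after Beta-Ac was above every library at 5 days after the clinical drug and that the latter were just above the controls. From 4 h to 5 days after the clinical drug CLDN18 fell by 0.59 on the log2 scale (SE 0.16, Storey adjusted p = 0.0196 in edgeR). The groups did not overlap, and 15.6% of all genes lay wholly below in the same comparison. This call sits at the fold-change threshold. It was lost with RLE normalization (log2 difference -0.58), with DESeq2 (-0.58), without fetus 15-85 at 4 h (-0.47), and without any of 6 other libraries (15-92, 16-115, 16-126, 16-128, 16-131 and 16-136), where it lay between -0.58 and -0.56. It was 1 of 7 members called where 10.4% of all genes were called. Beta-Ac showed a log2 difference of 0.15 for CLDN18 from 6 h to 5 days (SE 0.16, adjusted p = 0.769).

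**Figure D1:**
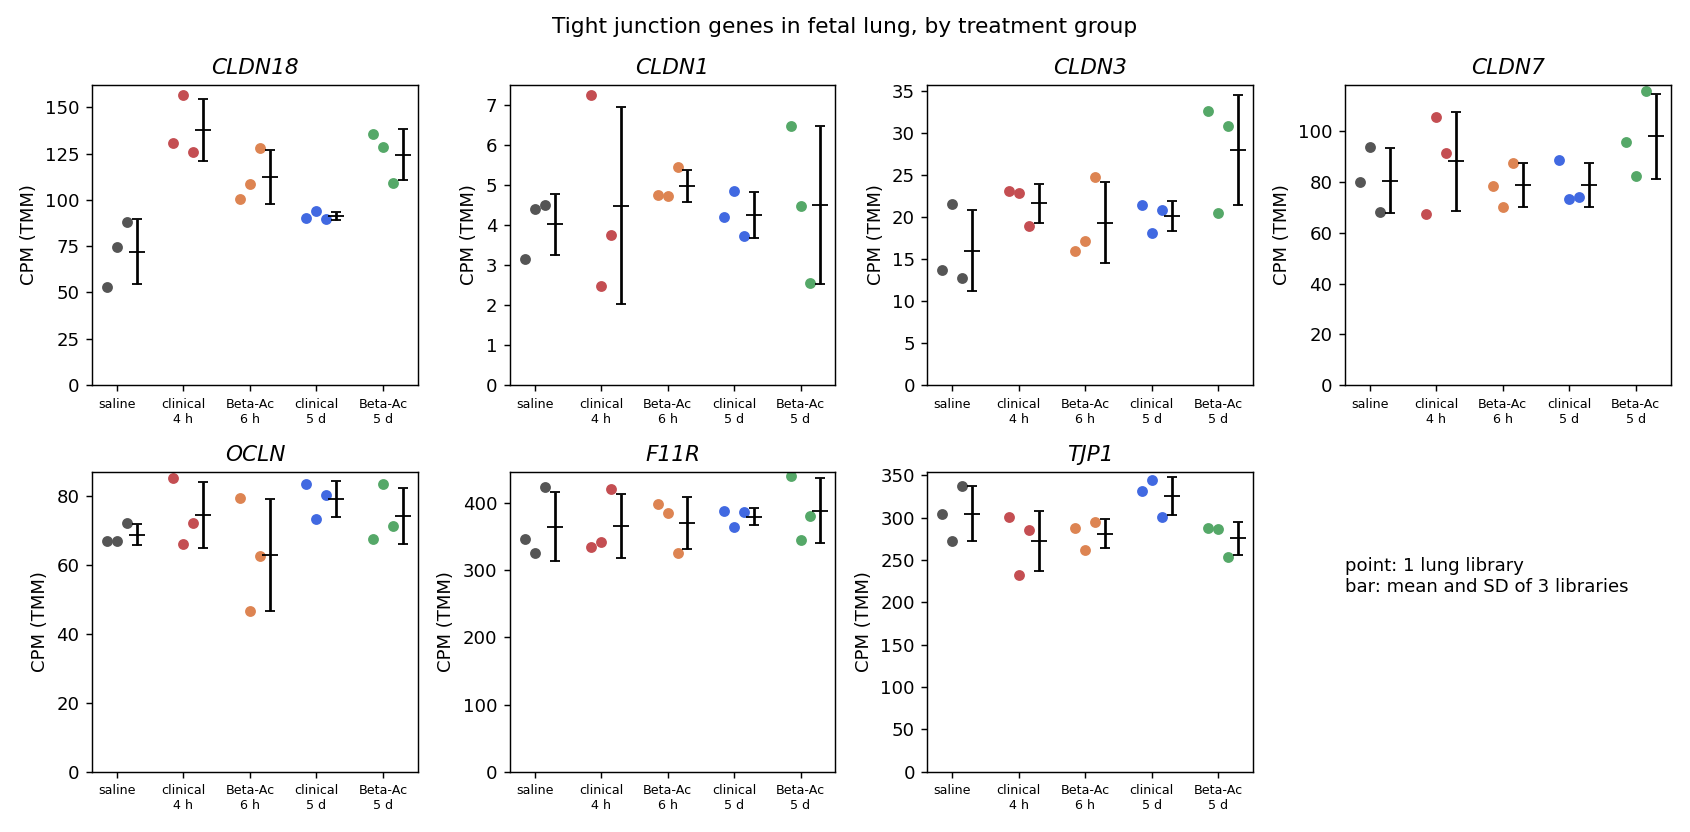
CPM of the 7 members measured in lung (y axis, from 0) in the 5 groups (x axis). Each point is 1 library and each bar the mean and SD of 3, and CLDN18 is the gene whose 12 treated libraries, from 89.9 to 157 CPM, all lie above the 3 saline libraries. The share of all genes with this pattern was not computed.

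Epithelial markers were set beside the CLDN18 result. The summed level of 9 epithelial markers ranged from 929 to 1124 CPM at 4 h after the clinical drug and from 818 to 1037 CPM in controls, and of these only ESRP1, a splicing regulator of epithelial cells, was called, as lower (log2 fold change -0.67). CLDN18 per 100 CPM of these markers was 13.9 ± 0.286 (SD, n = 3) at 4 h and 8.03 ± 2.43 in controls. The highest control reached 10.8 against a lowest value of 13.5 at 4 h. The other treated groups overlapped the controls in this ratio. They held 9.62 to 12.5 at 6 h after Beta-Ac, 10.1 to 13.7 at 5 days after Beta-Ac and 8.67 to 9.91 at 5 days after the clinical drug. The share of all genes that separate in this ratio was not computed. Some alveolar type 2 markers were higher too. Of 8, 3 were called higher at 4 h. These were the surfactant protein gene SFTPC (log2 fold change 1.13), the lipid transporter gene ABCA3 (0.93) and LAMP3 (1.25). SFTPB (0.58), LPCAT1 (0.20), SLC34A2 (0.04), SFTPD (-0.01) and NAPSA (-0.12) were not called. The sum of all 8 was 13240.4 to 19740.5 CPM against 8640.3 to 13209.7 CPM in controls. Of 6 alveolar type 1 markers HOPX was called higher (1.29) and RTKN2 lower (-0.65). The part of these shifts in the CLDN18 result was not tested.

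CLDN3, CLDN7 and CLDN1 were not called in any comparison within lung. CLDN3 (ENSMMUG00000001143), a claudin of airway and alveolar type 2 cells, held 12.7, 13.6 and 21.5 CPM in controls and 20.5, 30.8 and 32.6 CPM at 5 days after Beta-Ac. The lowest of these treated libraries fell below the highest control. Its log2 fold change was 0.81 (SE 0.23), with unadjusted p = 0.00308 and adjusted p = 0.656 in edgeR. At 4 h after the clinical drug CLDN3 held 19.0, 22.9 and 23.0 CPM (log2 fold change 0.44, adjusted p = 0.225) and was called without saline fetus 15-92, whose 21.5 CPM was the highest control level.

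CLDN7 (ENSMMUG00000010551), which is found along the sides of many epithelial cells, was 80.6 ± 12.7 CPM (SD, n = 3) in controls and from 78.8 ± 8.63 to 98.1 ± 16.8 in the treated groups, and its largest log2 fold change was 0.28 (SE 0.17) at 5 days after Beta-Ac. CLDN1 (ENSMMUG00000001915), a broadly expressed sealing claudin, was low in lung. It held 3.15, 4.40 and 4.52 CPM in controls and from 2.47 to 7.25 CPM over the 12 treated libraries, with both extremes at 4 h after the clinical drug. Its intervals were the widest of the lung members, for example from -0.61 to 0.98 on the log2 scale at 4 h, which does not exclude a 1.5-fold change in either direction.

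OCLN, F11R and TJP1 were not called in any comparison within lung. OCLN (ENSMMUG00000006216), for occludin, was most spread at 6 h after Beta-Ac, with 46.7, 62.5 and 79.3 CPM. It held 67.0, 67.0 and 72.3 CPM in controls and 73.3, 80.4 and 83.4 CPM at 5 days after the clinical drug. These groups did not overlap, yet the log2 fold change was 0.20 (SE 0.16, adjusted p = 0.931) and 6.25% of all genes lay wholly above the controls in that comparison. F11R (ENSMMUG00000001996), for JAM-A, varied least of the 7, with 325 to 440.0 CPM over all 15 libraries. Its log2 fold changes against saline lay between 0.00 and 0.09 in the 4 treated groups, with 95% intervals reaching from -0.27 to 0.36 at most.

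TJP1 (ENSMMUG00000017878), for the scaffold ZO-1, was 305 ± 32.1 CPM (SD, n = 3) in controls, 273 ± 35.8 at 4 h and 326 ± 22.6 at 5 days after the clinical drug, and 281 ± 17.4 and 276 ± 19.6 at 6 h and 5 days after Beta-Ac. The difference from 4 h to 5 days after the clinical drug was 0.26 on the log2 scale (SE 0.11, unadjusted p = 0.0349, adjusted p = 0.108 in edgeR), under the fold-change threshold. The groups did not overlap, as for 13.5% of all genes, which lay wholly above in that comparison.

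**Figure D2:**
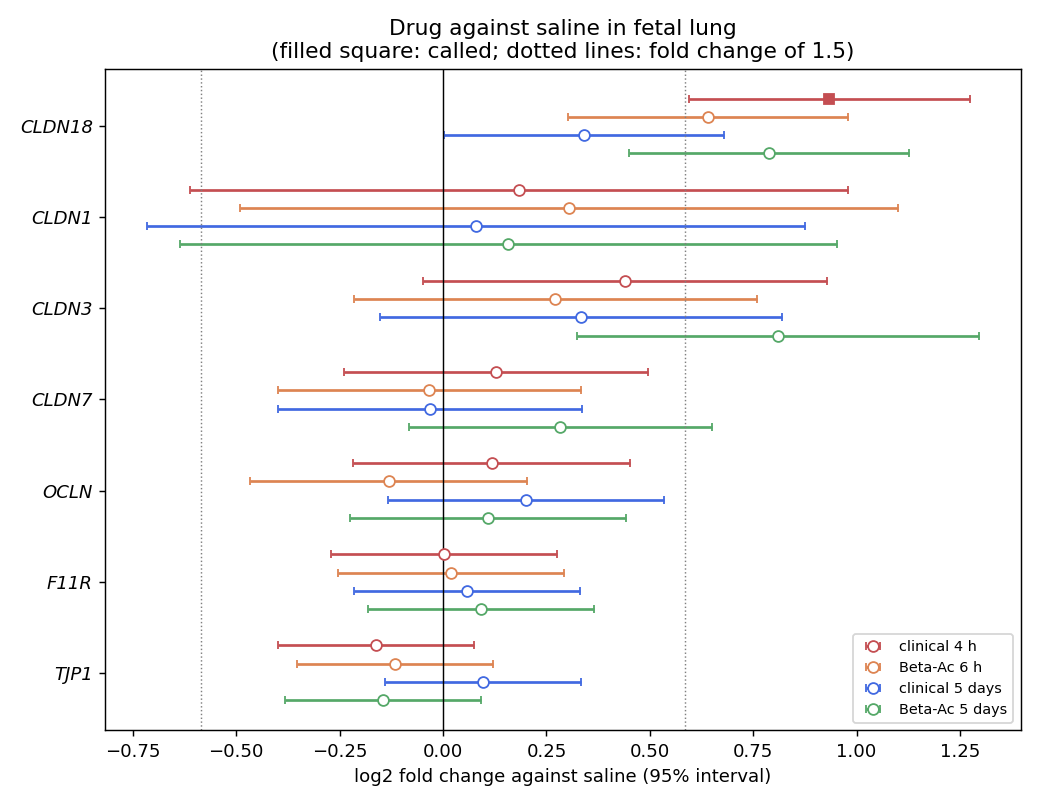
Log2 fold change against saline in lung (x axis) with 95% intervals for 7 members (y axis) in the 4 drug groups. Dotted lines mark a fold change of 1.5, and the filled square, CLDN18 at 4 h after the clinical drug (0.93), is the value called.

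Background rates put the lung counts in proportion. At 6 h after Beta-Ac 0 of 7 members were called by edgeR where 0.442% of all genes were, with 1 member under an unadjusted p of 0.05 and 1 called by DESeq2. At 5 days 0 of 7 were called after the clinical drug (0% of all genes, 775 genes under an unadjusted p of 0.05, 16 called by DESeq2), 0 after Beta-Ac (0.00567%) and 0 for both drugs together (0.0113%). The members under an unadjusted p of 0.05 were then CLDN18 after the clinical drug and CLDN3 and CLDN18 in the other comparisons, and DESeq2 called 0, 1 and 0 members. In the 4 comparisons against saline all member medians stood close to 0, and the largest of them was 0.16 on the log2 scale, at 5 days after Beta-Ac, with 6 of 7 members above 0 and a median over all genes of 0.01.

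The drugs were compared directly at their early times, which differ by 2 h, and at 5 days. Of the early pair, 0 of 7 members were called by edgeR and 0 by DESeq2, with 0 under an unadjusted p of 0.05, where 6.74% of all genes were called. The log2 difference of CLDN18 was 0.29 with a 95% interval of -0.04 to 0.63. At 5 days 0 of 7 members were called by either tool (0% of all genes in edgeR, 8 genes in DESeq2), with CLDN18 and TJP1 under an unadjusted p of 0.05. CLDN18 was lower after the clinical drug than after Beta-Ac in every library, by a log2 difference of -0.45 (95% interval -0.78 to -0.11, adjusted p = 0.999). TJP1 was higher in every library by 0.24 (95% interval 0.00 to 0.48, adjusted p = 0.999). Of all genes 5.03% lay wholly below and 6.25% wholly above in this comparison. From 6 h to 5 days after Beta-Ac 0 of 7 members were called by edgeR or DESeq2 (0.261% of all genes in edgeR), with CLDN3 under an unadjusted p of 0.05 at a log2 difference of 0.54 (SE 0.22).

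Other genes of the junction were taken from 4 lists of 52 genes, of which 37 were tested in lung. At 4 h after the clinical drug 4 rose and 1 fell, where 7.4% of all genes were called. YBX3, a transcription factor that binds ZO-1 and is also known as ZONAB, rose from 143 ± 6.07 to 231 ± 16.8 CPM (SD, n = 3, log2 fold change 0.70, SE 0.10, adjusted p = 0.000439 in edgeR). The scaffold gene MAGI3 rose from 278 ± 21.1 to 441 ± 38.2 CPM (0.66, SE 0.13). PRKCZ, an atypical protein kinase C of the polarity complex, rose from 42.0 ± 2.69 to 66.5 ± 6.92 CPM (0.66, SE 0.11), and CGNL1, for paracingulin, rose from 177 ± 51.3 to 295 ± 47.9 CPM (0.74, SE 0.19). ILDR1, for angulin-2 of the tricellular junction, fell from 3.18 ± 0.478 to 1.67 ± 0.463 CPM (-0.93, SE 0.28). PRKCZ was lost without fetus 15-85, CGNL1 without 15-81 or without control 15-101, and ILDR1 without 15-81, 15-97 or either of the controls 15-92 and 16-113. At 6 h after Beta-Ac edgeR called 0 of the 37 (6 under an unadjusted p of 0.05) and DESeq2 called 1, CGNL1. At 5 days both tools called 0 after either drug, with 5 genes after the clinical drug and 1 after Beta-Ac under an unadjusted p of 0.05.

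Several of these genes differed again at 5 days. From 4 h to 5 days after the clinical drug 5 of the 37 rose and 2 fell, where 10.4% of all genes were called. YBX3 fell by 0.66 (SE 0.10) and MAGI3 fell by 0.64 (SE 0.13), to means of 146 and 284 CPM. ILDR1 rose by 1.04 (SE 0.28) to 3.44 ± 0.440 CPM and ILDR2, for angulin-3, by 1.27 (SE 0.35) to 3.39 ± 0.852 CPM. CLDN2, the claudin that forms a cation pore, rose by 3.12 (SE 0.91), from 0.205 ± 0.146 CPM on 12 reads at 4 h to 1.62 ± 0.419 CPM on 127 reads. The remaining rises were AMOTL1 by 0.70 and the scaffold gene MAGI1 by 0.61, and both calls were lost when fetus 16-115, 16-120 or 15-85 was left out (MAGI1 also without 15-97), as were ILDR2 without 16-120 and MAGI3 without 16-115 or 15-97. Against Beta-Ac at 6 h, CLDN2 (-2.58, SE 0.92) and ILDR1 (-0.74, SE 0.28) were lower at 4 h after the clinical drug. Those 2 calls were lost under 10 and 16 of 21 alternative settings.

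In hippocampus a single saline library, CTL212, stood apart from the other 14 for several members. Comparisons with saline are therefore also given without it. CLDN1 held 93.7 CPM (2342 reads) in CTL212 against 1.94, 3.45, 3.49 and 4.84 CPM in the other controls. CLDN3 held 23.5 CPM (588 reads) against 0.281, 0.350, 0.389 and 0.397 CPM. CLDN4, an epithelial claudin below the read minimum, held 12.7 CPM (317 reads) in CTL212 against 0 or 1 read in the other controls and at most 6 reads and at most 0.246 CPM in the treated libraries.

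OCLN held 67.7 CPM in CTL212 against 15.0 to 33.2 CPM in the 14 others. TJP1 (220.2 CPM) lay inside the range of the others, from 148 to 261 CPM, and F11R (8.44 CPM) just above theirs, from 4.10 to 8.16 CPM. CLDN7 had 1 read there. Of junction genes outside the list, CLDN2 (40.6 CPM against at most 0.0491), TJP3, for ZO-3 (23.2 against at most 0.247), MARVELD2, for tricellulin (29.1 against at most 3.87), and CGN, for cingulin (41.9 against at most 12.7), were also high, whereas CLDN12 (34.7 against 31.2 to 71.1) was not.

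**Figure D3:**
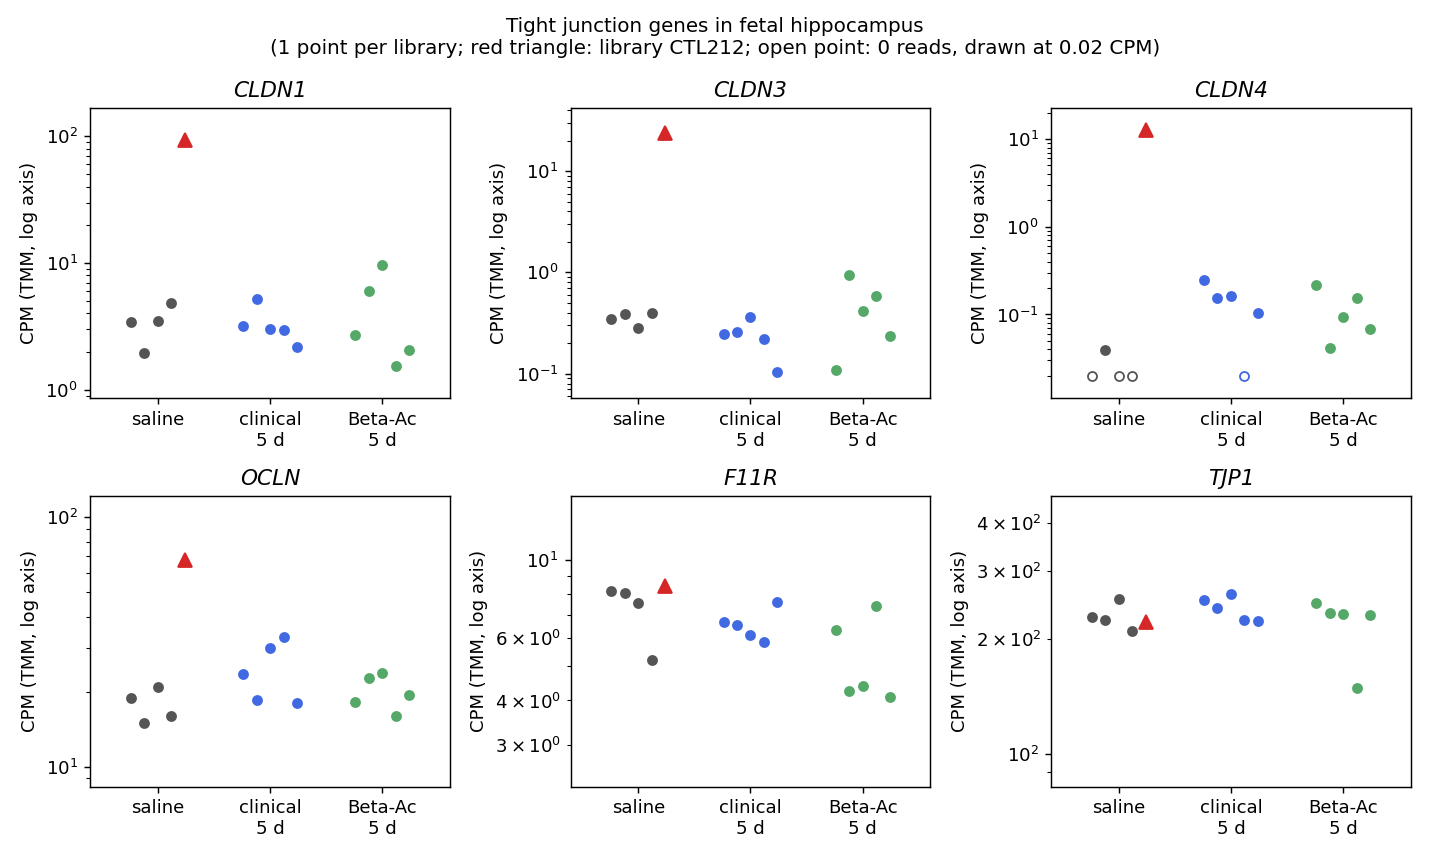
CPM on a log axis for 6 members in hippocampus by group, 1 point per library. The red triangle is saline library CTL212, which lies above all others for CLDN1, CLDN3, CLDN4 and OCLN (93.7, 23.5, 12.7 and 67.7 CPM) and inside their range for TJP1.

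Markers of the choroid plexus, which borders the hippocampus, were high in the same library. FOLR1, a folate receptor, held 326 CPM against at most 3.32 in the 14 others, the chloride channel gene CLIC6 held 421 against at most 3.25, and the transcription factor gene OTX2 held 156 against at most 14.3. SLC4A5 (77.5 against at most 5.06) and PRLR (23.9 against at most 2.86) completed the 5 of 9 listed markers with a row, and TTR, KCNE2, KCNJ13 and AQP1 were not analysed here. The 5 summed to 1003 CPM in CTL212 and to between 4.39 and 21.3 CPM in the others. All 5 were called lower after the clinical drug and for both drugs together, and without CTL212 only SLC4A5 was (log2 fold changes -0.62 and -0.62), while FOLR1 and OTX2 changed sign after the clinical drug (0.72 and 0.06). CTL212 also had the highest summed levels of the 15 libraries for airway markers (277 CPM against at most 115), pericytes (334 against at most 213), endothelium (410.4 against at most 282), brain barrier endothelium (389.8 against at most 385) and meninges (713 against at most 440.5). It had the lowest for hippocampal neurons (1971 against at least 2303). The part of these markers in the claudin results was not tested.

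**Figure D4:**
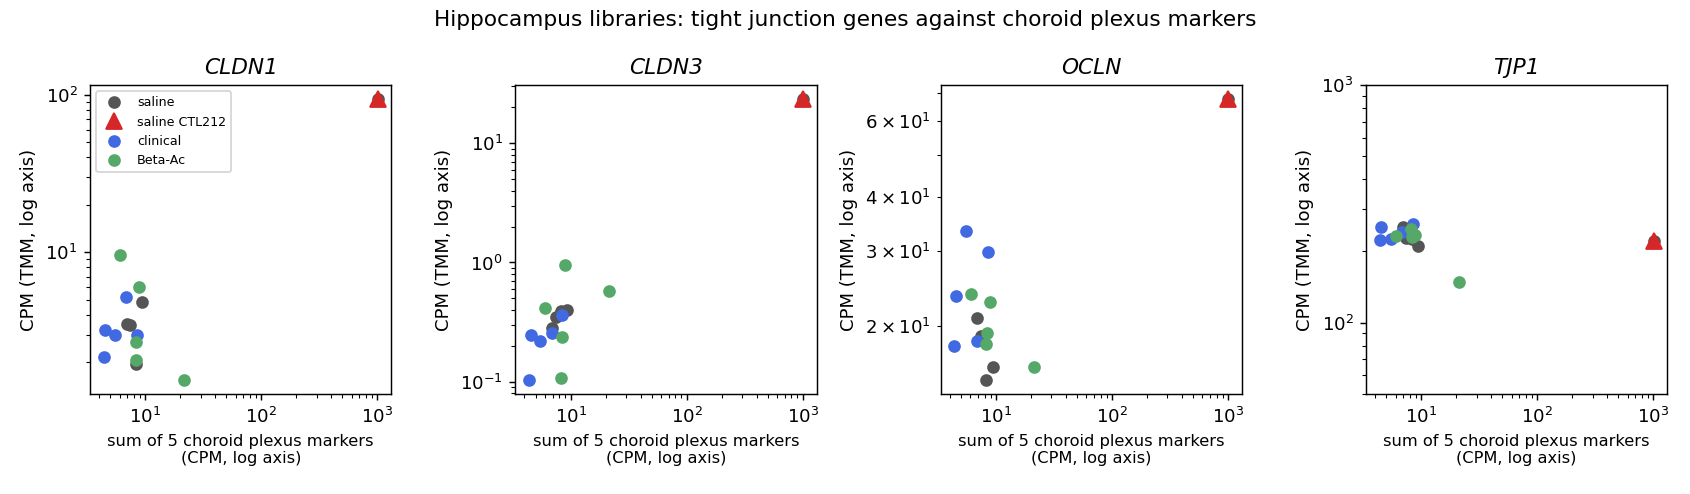
CPM of 4 members (y axes, log) against the summed CPM of 5 choroid plexus markers (x axes, log) in 15 hippocampus libraries. CTL212 (red triangle) is alone at 1003 CPM of markers, high for CLDN1, CLDN3 and OCLN, and level with the others for TJP1.

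With all libraries CLDN1 and CLDN3 were called lower in hippocampus, and these calls rested on CTL212. After the clinical drug CLDN3 held from 0.103 to 0.364 CPM (log2 fold change -4.35, SE 1.25, Benjamini-Hochberg adjusted p = 0.0359 in edgeR) and CLDN1 from 2.17 to 5.20 CPM (-2.70, SE 0.95, adjusted p = 0.0715). The CLDN1 call was also lost without any 1 of the 5 treated libraries. For both drugs together the log2 fold changes were -3.90 (SE 0.93, adjusted p = 0.0328) for CLDN3 and -2.50 (SE 0.75, adjusted p = 0.0588) for CLDN1. The groups overlapped in each comparison. Over both drugs all controls but CTL212 lay among the treated libraries, whereas for the clinical drug alone 2 controls (0.389 and 0.397 CPM) were just above the treated range of CLDN3 and 1 control (1.94 CPM) was below that of CLDN1. Without CTL212 the values of CLDN3 and CLDN1 were, in this order, for the clinical drug -0.55 (adjusted p = 0.514) and -0.05 (adjusted p = 0.951), and those for both drugs were -0.10 (adjusted p = 0.917) and 0.15 (adjusted p = 0.861), so that 0 of 5 members were called. DESeq2 gave no p for CLDN1 or CLDN3 in these comparisons and called 0 of the others.

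The 2 members called were 2 of 5 where 7.86% of all 17390 genes were called after the clinical drug and 3.42% for both drugs together. Leaving out CTL212 changed these background counts from 1366 to 1357 and from 595 to 549 genes. Sequencing runs bear on this too, as saline libraries came from 4 runs and treated libraries from 2 of them. In run1630, with 1 control and 3 libraries per drug, the log2 differences of CLDN1 were 0.08 (clinical) and 0.62 (Beta-Ac), and those of CLDN3 were 0.08 and 0.34. In run0164, where CTL212 was the 1 control beside 2 libraries per drug, they were -5.15 and -5.65 for CLDN1 and -6.55 and -5.72 for CLDN3.

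Beta-Ac gave no calls among the 5 members in hippocampus. The edgeR count was 0 of 5, and 0% of all genes were called with 2133 under an unadjusted p of 0.05. DESeq2 called 149 genes and none of OCLN, F11R and TJP1, and again gave no p for CLDN1 or CLDN3. CLDN1, CLDN3 and F11R were under an unadjusted p of 0.05. For CLDN1 and CLDN3 this rested on CTL212, with log2 fold changes of -2.30 and -3.45 with it and of 0.35 and 0.35 without it (unadjusted p = 0.466 and 0.485 in edgeR). OCLN had -0.47 with it and 0.18 without it. Between the drugs 0 of 5 members were called by edgeR, with 0 under an unadjusted p of 0.05 and 0% of all genes called. DESeq2 called 186 genes and none of OCLN, F11R and TJP1, without a p for CLDN1 or CLDN3. The log2 difference of F11R was 0.31 with a 95% interval of -0.09 to 0.71.

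F11R had lower values after Beta-Ac that did not pass the test, with or without CTL212. Controls held 5.20, 7.58, 8.09, 8.16 and 8.44 CPM, the clinical drug group 5.86, 6.12, 6.54, 6.68 and 7.59 CPM, and the Beta-Ac group 4.10, 4.24, 4.40, 6.32 and 7.42 CPM. All Beta-Ac libraries were below the 4 upper controls and the lowest control lay among them. The log2 fold change after Beta-Ac was -0.50 (SE 0.19, unadjusted p = 0.0175, adjusted p = 0.320) and -0.45 without CTL212 (adjusted p = 0.346). It was -0.62 within run1630 (3 Beta-Ac libraries) and -0.61 within run0164 (2 Beta-Ac libraries), each against 1 control. In run0164 that control was CTL212, the library with the highest F11R level.

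OCLN held 15.0, 16.0, 18.9 and 20.9 CPM in the 4 other controls and 18.02, 18.5, 23.4, 29.8 and 33.2 CPM after the clinical drug. Its log2 fold change was -0.17 (SE 0.35, adjusted p = 0.776) with CTL212 and 0.47 (unadjusted p = 0.0243, adjusted p = 0.109) without it. TJP1 was 227 ± 16.1 CPM (SD, n = 5) in controls, 240.0 ± 17.1 after the clinical drug and 218 ± 39.6 after Beta-Ac, the last with 1 library, BAC235, at 148 CPM. Its 95% interval for both drugs against saline was -0.20 to 0.23 on the log2 scale, which excludes a 1.5-fold change. CLDN7 had at most 1 read in 14 libraries and 9 reads in 1 (BAC130), and CLDN18 had 0 reads in all 15, which allows a level of up to 0.00842 CPM over the 15 libraries, for counting error only.

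Among the other junction genes, 33 were tested in hippocampus, and 4 fell and 1 rose after the clinical drug. Of all genes 7.86% were called, 931 lower and 435 higher. MAGI3 fell from 27.6 ± 3.78 to 14.4 ± 3.41 CPM (SD, n = 5; log2 fold change -0.93, SE 0.17) and PATJ, a Crumbs complex scaffold, from 13.2 ± 3.17 to 6.56 ± 1.24 CPM (-1.01, SE 0.22). PRKCZ fell from 103 ± 14.3 to 61.9 ± 6.70 CPM (-0.74, SE 0.19) and JAM3, a relative of F11R, from 23.4 ± 6.21 to 15.4 ± 1.03 CPM (-0.61, SE 0.15). CLDN12 rose from 39.4 ± 5.73 to 61.0 ± 8.70 CPM (0.63, SE 0.16). Without CTL212 all but JAM3 (-0.43) stayed called. CLDN12 was lost without treated fetus 16-120. JAM3 was lost without library CEL245 and with only the 3 animals per group that have a lung library. With sequencing run as a block CLDN12 and PRKCZ were lost. All 5 were lost within run1630.

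For both drugs together 4 of the 33 fell and 0 rose by edgeR, where 3.42% of all genes were called, 434 lower and 161 higher. MAGI3 fell by 0.90 (SE 0.14) and PATJ fell by 0.88 (SE 0.18), and by 0.89 and 0.76 without CTL212. Within run1630, which holds 1 control, the log2 fold change of MAGI3 was -0.55, under the fold-change threshold. CXADR, for the coxsackievirus and adenovirus receptor of junctions, fell by 0.59 (SE 0.13), from 116 ± 23.7 CPM in controls to 80.1 ± 10.4 and 73.9 ± 13.7 CPM, and by 0.68 without CTL212. It was lost without any of 6 fetuses (saline CTL092 and CTL101, Beta-Ac BAC136, BAC235 and BAC237, clinical CEL126). The CXADR and PATJ calls were also lost with sequencing run as a block, and that of CXADR with RLE normalization. PATJ was lost too with only the 3 animals per group that have a lung library. MARVELD2 (-1.43, SE 0.49) had a value of 0.03 without CTL212, and its call was lost without any of 11 libraries. DESeq2 called MAGI3 and PATJ. After Beta-Ac alone edgeR called 0 of the 33 (8 under an unadjusted p of 0.05) and DESeq2 called 3, MAGI3, PATJ and CXADR.

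The same 9 fetuses gave both tissues, which allowed each gene to be compared within an animal. CTL212 is not among them. The tissues were counted on different sets of gene identifiers. Their labels name different aligners and describe RNA preparation separately. None of these, nor the sequencing run, can be told apart from tissue here. Between lung and hippocampus 73.6% of all 15173 genes tested were called, and a call in itself therefore says little. CLDN7 and CLDN18 passed the read minimum through their lung libraries alone and had to differ.

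F11R was higher in lung in 9 of 9 animals, by 39.8- to 86.4-fold (median 58.0). Its lung libraries held from 325 to 440.0 CPM and its hippocampus libraries from 4.24 to 8.16 CPM (log2 difference 5.75, SE 0.08, adjusted p = 6.67e-13). CLDN3 was higher by 5.67 on the log2 scale (SE 0.28), on 78 hippocampus reads over the 9 animals. OCLN was higher by 2.70- to 4.48-fold (log2 difference 1.67, SE 0.07).

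CLDN7 had 13 reads in the 9 hippocampus libraries against a lung mean of 85.9 CPM. CLDN18 had 0 hippocampus reads against 20645 lung reads, and was at least 6924-fold higher in lung, set against 3 reads over the 9 hippocampus libraries.

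TJP1 and CLDN1 differed least between the tissues. TJP1 was higher in lung in 9 of 9 animals, by 1.096- to 1.44-fold (median 1.23), with a log2 difference of 0.18 (SE 0.06, adjusted p = 0.0114) that is under the fold-change threshold. CLDN1 was 4.26 CPM in lung and 4.29 CPM in hippocampus on average, higher in lung in 6 of 9 animals, with ratios from 0.264 to 2.39 and a log2 difference of -0.05 (95% interval -0.63 to 0.54, adjusted p = 0.876). In Beta-Ac fetus 16-136 it was 2.54 CPM in lung and 9.63 CPM in hippocampus, and in Beta-Ac fetus 16-128 it was 6.49 and 2.71 CPM, so that the animals went opposite ways.

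**Figure D5:**
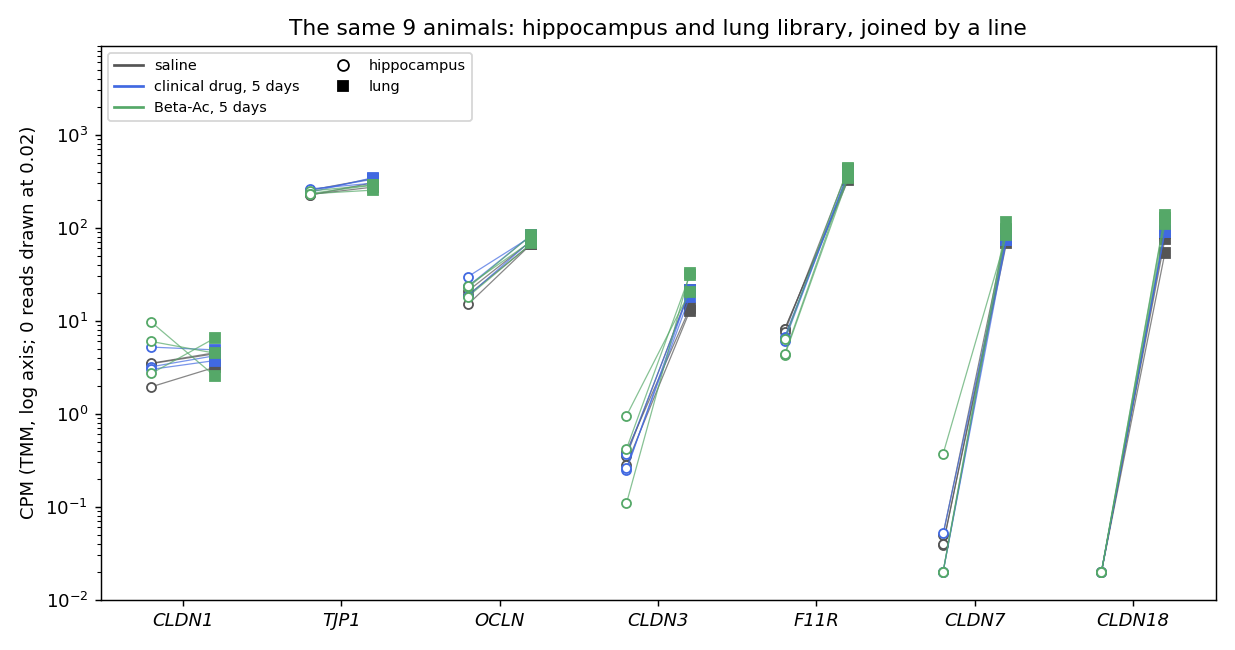
CPM (y axis, log) of 7 members in the hippocampus and lung library of the same 9 animals, joined by a line and coloured by treatment. TJP1 is nearly level between tissues, CLDN1 goes up in 6 animals and down in the others, hippocampus libraries with 0 reads are drawn at a fixed low level, and the lines of F11R, CLDN7 and CLDN18 rise by 39.8-fold or more.

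Of the other junction genes 39 were tested between tissues, and 21 were called higher in lung and 12 lower, with a median log2 difference of 0.63 against 0.02 over all genes. The scaffold gene TJP3 (8.81, SE 0.48), CLDN8 (8.26, SE 0.60), CLDN22 (5.96, SE 0.82), ILDR1 (5.91, SE 0.41) and CLDN2 (5.46, SE 0.46) had the largest differences toward lung. All 5 passed the read minimum through lung alone and had to differ, and CLDN8 and CLDN22 had no hippocampus read, so that their values are fitted and not bounds. The neuronal scaffold gene MAGI2 (-6.90, SE 0.15), CLDN10 (-5.86, SE 0.32), IGSF5 (-5.43, SE 0.53), CLDN16 (-5.23, SE 0.67) and ILDR2 (-3.51, SE 0.13) had the largest toward hippocampus, of which IGSF5 and CLDN16 passed through hippocampus alone. Of the 31 genes that passed in both tissues, 15 were called higher in lung and 10 lower, with a median log2 difference of 0.54. MAGI2 was 125 ± 16.8 CPM (SD, n = 5) in saline hippocampus and 1.35 ± 0.213 CPM (SD, n = 3) in saline lung, and MAGI3 went the other way, with 27.6 ± 3.78 and 278 ± 21.1 CPM. The endothelial adhesion gene ESAM was 3.37 higher in lung (SE 0.07), and 8 of 8 endothelial markers were called higher there too.

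Whether the 5-day drug difference itself differed between the tissues was tested as an interaction in the same 9 animals. By edgeR 0 of 7 members were called, 1 (F11R) was under an unadjusted p of 0.05 and DESeq2 called 0, where 5.15% of all genes were called. F11R came closest, with a drug difference 0.57 higher in lung than in hippocampus on the log2 scale (SE 0.15, 95% interval 0.24 to 0.89, adjusted p = 0.0692), a little under the fold-change threshold. It was called (0.73) when saline fetus 16-113 was left out. The lung to hippocampus ratio of F11R was 39.8, 42.7 and 55.8 in the 3 saline animals, 55.7, 58.0 and 63.2 after the clinical drug and 69.6, 81.3 and 86.4 after Beta-Ac. The Beta-Ac animals had the 3 highest ratios of the 9 and the saline animals the 2 lowest. The share of all genes with such an order was not computed, so that this ranking only describes the values. Of the 39 other junction genes 3 were called, PRKCZ (0.90, SE 0.17), MAGI3 (0.90, SE 0.21) and CGNL1 (0.59, SE 0.16), all higher in lung relative to hippocampus, and each call was lost without 5 or more of the 9 animals in turn. DESeq2 called 5, with PRKCZ and MAGI3 and without CGNL1.

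The members did not follow a shared pattern across the lung libraries. Over the 15 libraries Pearson's r of log2 CPM was highest between CLDN3 and CLDN7 (0.65) and lowest between CLDN7 and TJP1 (-0.61), and CLDN18 reached 0.58 with CLDN3 and 0.07 with F11R. These are descriptions over libraries that share treatment groups and depth. CLDN3 and CLDN7 followed the summed epithelial markers (r of 0.71 and 0.65), and CLDN18 followed alveolar type 2 markers (0.70) more than all epithelial markers (0.41). TJP1 did neither (-0.08 and -0.38).

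The genes whose lung levels were most like those of CLDN18 were STXBP2 (r of 0.88), IRAK1 and PLAGL2, and those most like TJP1 were MAP4K4 (0.92), FBXW11 and NAV3. Those most like CLDN1 were DNAJC30, FAM161A and FBXO16, those most like CLDN3 were PPP1R13L, TMUB1 and FJX1, and those most like CLDN7 were PPRC1, FJX1 and XPO5. OCLN was most like MLPH, CER1 and DIO1, and F11R most like the collagen gene COL3A1 (0.81), SFRP2 and COL1A1.

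In hippocampus CLDN1 and CLDN3 had r = 0.88 over 15 libraries and 0.34 over the 14 without CTL212. CLDN3 was most like ABCA4, CLIC6 and ENPP2 (0.93 to 0.94) with CTL212 and most like NSG1, GAP43 and ZNF425 (0.86) without it. CLDN1 was most like GALNT10, TCP11L2 and SFRP1 with it and GPRASP1, ANKRD34B and GPRASP2 without it. OCLN changed from CA12, NAALADL2 and BTBD19 to TFRC, CTSO and SSPN. TJP1 kept BTBD7 and DNAL1 among its 3 genes, beside ATXN7 with CTL212 and SP1 (0.98) without it. F11R was most like KY, EIF5B and MSRB2 and, without CTL212, S100A1, WASF1 and KY.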

How the data were processed

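Lung and hippocampus RNA (hippocampus after poly(A) selection, 75 bp paired-end reads) was sequenced by the authors. Per the labels, reads were processed with Bowtie 1.2.1.1 and featureCounts 1.5.1 for lung and with Bowtie2 and featureCounts for hippocampus, and the study's methods name the rhesus build MMUL1.0. The deposited values are raw counts, whole reads per Ensembl gene, without filter or normalization. Symbols came from a reference table that matched 15769 lung and 17621 hippocampus identifiers. Whether strand was used in counting is not given in the sources used here.

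Counts were tested with edgeR 4.0.16 (R 4.3.3; TMM, quasi-likelihood F-test), 1 fit per tissue, after a minimum of 7 reads in 3 lung or 5 hippocampus libraries. P values were adjusted over all genes by Storey's method in lung, written for this work from its published form, and by Benjamini-Hochberg elsewhere. The tissue fit covered the 20572 shared identifiers with the animal as block, since both libraries come from 1 animal, and a minimum of 7 reads in 3 libraries. Correlations used log2 CPM with a prior of 2 reads. Fits were tested on simulated data. The smallest chi-square per gene over 45 pairs of replicates was 14.6, far above sampling noise, so that every library was counted as its own sample.

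The members and all lists were chosen with earlier results of these data known. Named genes are all members, at most 5 called genes per direction and comparison from 4 lists of other junction genes, the 3 genes most like each member, and FKBP5 as a check of the drug response. Group markers named beside a result and the values within sequencing runs were picked to describe CTL212 and CLDN18 after these were seen. Alternatives were RLE normalization, filterByExpr, no filter, the other adjustment, only the groups compared, DESeq2 1.42.0, run as a block, only animals with both tissues, no animal block, only saline animals, and each library left out. A fit within run1630 and the choroid plexus markers without CTL212 were added after seeing the data. Sequences of the genes were not analysed here.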

Additional observations from a re-analysis of the deposited data

Results flagged for a closer look

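Of 21 sets of 5 hippocampus libraries (1 member in 1 group), 8 held a library far from the other 4. The cut-off flags about 1 in 20 sets that are independent and normally distributed. The sets here share the same libraries and some hold few reads, so that the count cannot be compared with that rate. In 4 of the 8 flagged sets the library apart was saline library CTL212, with CLDN1 at 93.7 CPM, CLDN3 at 23.5 CPM, CLDN4 at 12.7 CPM and OCLN at 67.7 CPM. The others were F11R at 5.20 CPM in saline library CTL209, below its group, TJP1 at 148 CPM in Beta-Ac library BAC235, below its group, and CLDN7 at 0.371 CPM (9 reads) in Beta-Ac library BAC130 and at 0.0501 CPM (1 read) in saline library CTL092, both above their groups. All 5 saline libraries had 1 CLDN7 read, so that CTL092 differed from them by its library size alone. Lung groups of 3 were too small for this comparison.

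Some drug differences themselves differed between times, drugs or tissues by the edgeR test. From 4 h to 5 days 1 of 7 members and 7 of 37 other junction genes were called, against 10.4% of all genes. For the early pair of drugs these were 0 of 7 and 2 of 37, against 6.74%. Between tissues they were 0 of 7 and 3 of 39, against 5.15%. From 4 h to 5 days after the clinical drug in lung the log2 differences were -0.59 for CLDN18, -0.66 for YBX3, -0.64 for MAGI3, 0.61 for MAGI1, 0.70 for AMOTL1, 1.04 for ILDR1, 1.27 for ILDR2 and 3.12 for CLDN2. For the early clinical group relative to the early Beta-Ac group they were -2.58 for CLDN2 and -0.74 for ILDR1. Between lung and hippocampus at 5 days they were 0.59 for CGNL1, 0.90 for MAGI3 and 0.90 for PRKCZ.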

How the results depend on the processing

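Of 312 recomputed counts of called members, 280 stayed within 1.5 times the reported count. Most comparisons had a reported count of 0, and a recomputed 0 was scored as unchanged there. This share therefore says little about how stable the calls are. With each library left out, the count ranged from 1 to 2 for the clinical drug at 4 h, from 0 to 1 for Beta-Ac at 6 h and for the clinical drug from 4 h to 5 days in lung, from 0 to 2 in hippocampus for the clinical drug and for both drugs, and from 0 to 1 for the interaction. The 5 members called between tissues stayed 5 in 14 of 14 settings, with no animal block (5) included. No other member call changed without the animal block. The fall of CLDN18 from 4 h to 5 days gave 0 called members with RLE, filterByExpr, no filter, only the groups compared and DESeq2. DESeq2 called 1 member at 6 h and 1 at 5 days after Beta-Ac in lung. In hippocampus the count for the clinical drug and for both drugs was 3 with no filter (CLDN4 added) and 1 with filterByExpr. It was 0 with only the 3 animals per group that have a lung library, and 0 with DESeq2, which gave no p for CLDN1 or CLDN3. The hippocampus differences of CLDN1 reversed to 0.36 and 0.70 (clinical, both drugs) in the 3 animals per group, to 0.11 and 0.46 within run1630 and to 0.15 for both drugs without CTL212, and those of CLDN3 to 0.15 for both drugs in the 3 animals per group and to 0.048 and 0.41 within run1630. With each library left out, CLDN1 for both drugs ranged from -2.80 to 0.15. These settings leave out CTL212, so that fewer libraries carry the fit, and the cause of the other changes was not tested. With 3 animals per lung group, CLDN1 (33 to 313 reads) had the least depth of the lung members.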
